A study of Arabidopsis thaliana with 8 samples.

Results

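IAA29 and GH3.3 are auxin response genes of Arabidopsis thaliana, and their transcript levels are described here across a cold treatment of whole plants. Both were found by symbol in the platform's probe annotation, as 2 of 13356 named genes with a probe set of their own. IAA29 (AT4G32280) is read by probe set 253423_at and GH3.3 (AT2G23170) by 245076_at. Each is the only probe set paired with its gene here. The pair was selected on earlier results from the same arrays, namely the higher signals of both genes at 24 h than at 0 h. Values at 24 h are therefore given as a description with no test.

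The plants were of the wild-type accession Col-0, which carries no transgene or mutation named in the labels. They were raised for 10 days at 24 °C on plates of agar with nutrient salts, in fluorescent light kept on throughout at 100 µmol m-2 s-1, after the seed had been stratified in the cold for 4 days. The 0 h group was harvested under these growth conditions. The 1 h, 24 h and 7 days groups were moved to 4 °C and dimmer light, near 25 µmol m-2 s-1 and also never switched off, for the time named. Each of the 4 groups holds 2 arrays of RNA from whole plants. Cold and lower light began together and cannot be told apart. At 7 days the plants were also older than at 0 h, and no warm plants of that age were analysed here. The labels do not say whether the 2 arrays of a group are separate plant cultures, so the spread behind each p-value may be technical.

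Auxin controls growth and patterning by releasing transcription from repression. Aux/IAA proteins such as IAA29 bind auxin response factors and hold their target genes down. Auxin brings Aux/IAA proteins together with F-box proteins of the TIR1 family, which leads to their destruction. Many Aux/IAA genes are themselves induced by auxin, so that the response makes its own repressors. IAA29 is also known as a target of phytochrome-interacting factors in shade and warmth. GH3.3 belongs to a family of enzymes that join auxin to amino acids and so take it out of the active pool, and its transcript is likewise auxin-inducible. In bulk samples such as these, fewer cells of a type and less RNA per cell cannot be told apart.

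IAA29 was dim at 0 h and 1 h and several-fold brighter at 24 h and 7 days. Its MAS5 signal, a measure of brightness in arbitrary units on a linear scale, was 10.6 and 27.1 at 0 h, 15.0 and 23.8 at 1 h, 80.8 and 180.9 at 24 h, and 89.1 and 106.7 at 7 days. All 4 arrays of 24 h and 7 days lay above all 4 arrays of 0 h and 1 h. This split includes the difference that chose the gene, and the share of all probe sets that split so was not counted. In the narrower comparisons, 59.9% of probe sets lay apart at 7 days against 0 h and 64% against 1 h. The group means were 18.8 ± 11.6 at 0 h, 19.4 ± 6.25 at 1 h, 130.9 ± 70.8 at 24 h and 97.9 ± 12.5 at 7 days (SD, n = 2 each). In the order of the means, the arrays of 0 h and 1 h overlapped, those of 7 days lay apart from 1 h, and those of 24 h overlapped 7 days. On its own array, IAA29 stood at the 24.1 and 40.2 percentile of all probe sets at 0 h and at the 69.2 and 73.8 percentile at 7 days.

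GH3.3 had a single high time point. Its signal was 16.2 and 19.8 at 0 h, 25.7 and 27.9 at 1 h, 76.4 and 61.3 at 24 h, and 18.9 and 33.1 at 7 days. Both 24 h arrays lay above the other 6 arrays, and at 7 days the 2 arrays enclosed those of 1 h and reached into the range of 0 h. The 24 h values chose the gene, and the share of all probe sets with such a split was not counted. The means were 18 ± 2.57 at 0 h, 26.8 ± 1.57 at 1 h, 68.9 ± 10.7 at 24 h and 26.0 ± 10.0 at 7 days (SD, n = 2 each). In the order 0 h, 7 days, 1 h and 24 h, only 24 h was separate from its neighbour. GH3.3 stood at the 31.5 and 33.5 percentile of its arrays at 0 h, the 66.1 and 59.8 percentile at 24 h and the 35.2 and 46.6 percentile at 7 days.

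**Figure D1:**
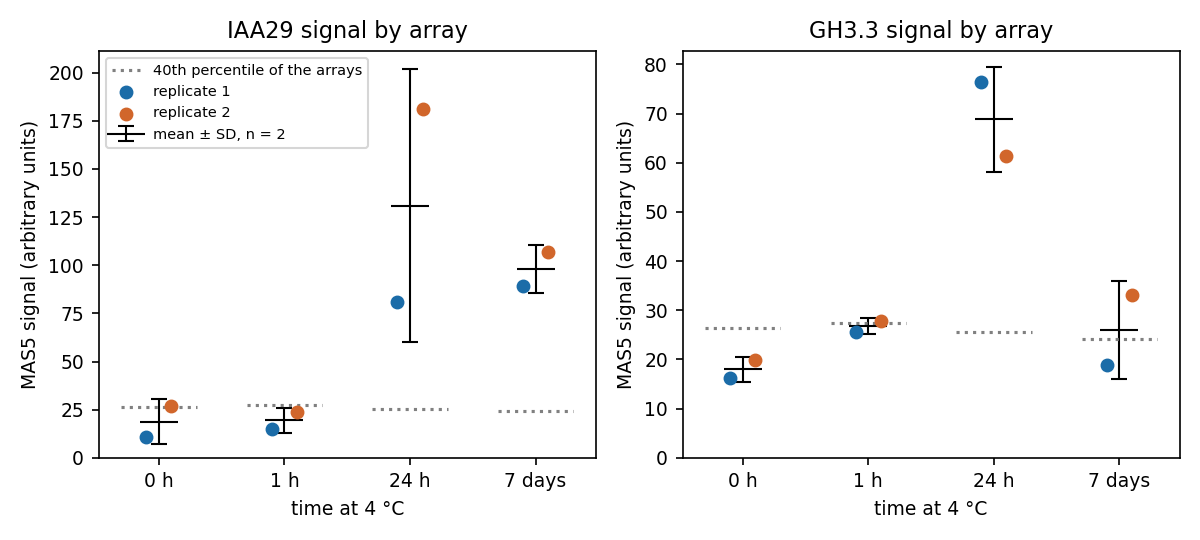
MAS5 signal (arbitrary units, linear axes from 0) of IAA29 (left) and GH3.3 (right) on each of the 8 arrays by time at 4 °C. Coloured points are single arrays, black bars the mean ± SD of 2 arrays, and the dotted line the 40th percentile of signals on the arrays of that group. IAA29 is high at 24 h and 7 days, while GH3.3 is high at 24 h and lies between 18.9 and 33.1 at 7 days.

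Both genes passed the filter on dim probe sets, which asked that 2 or more arrays exceed their own 40th percentile. IAA29 did so on 5 arrays, among them both at 24 h and both at 7 days. GH3.3 did so on 4, both at 24 h, replicate 2 of 1 h and replicate 2 of 7 days. At 0 h, 3 of the 4 member signals lay under that percentile. No detection calls are given in the sources used here, so a low level there is not shown to be above background.

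The difference at 24 h was described from the values that chose the pair. On the log2(signal + 8) scale, which understates changes of dim genes, IAA29 was higher at 24 h than at 0 h by 2.34 ± 0.38 (SE) and GH3.3 by 1.56 ± 0.28 (SE). Of all 15017 probe sets tested, 11.8% were called higher in that comparison, and nothing is read from the members' place among them. Against 1 h the differences were 2.26 ± 0.38 for IAA29 and 1.14 ± 0.28 for GH3.3, with 11.3% of probe sets called higher. The arrays lay apart for both genes in both comparisons, as they did for 61.3% of probe sets against 0 h and 63.7% against 1 h. The 24 h arrays of IAA29 stood far apart. Replicate 2 was 2.24 times replicate 1, and only 2.6% of tested probe sets had replicates at least as far apart at 24 h. For GH3.3 replicate 2 was 0.803 times replicate 1, a gap that 48.7% of probe sets reached.

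Neither gene passed the test at 1 h against 0 h, the comparison for an early response. IAA29 differed by 0.08 (95% confidence interval -0.74 to 0.90, limma adjusted p = 1, unadjusted p = 0.832 in the same limma fit). GH3.3 differed by 0.42 (95% confidence interval -0.19 to 1.04, limma adjusted p = 1, unadjusted p = 0.161 in the same fit). Both GH3.3 signals at 1 h lay above both at 0 h, which was so, in one direction or the other, for 32.4% of probe sets in this comparison. With 0 of 2 members called, the background was 0.32% of probe sets called in either direction. The interval of GH3.3 includes a doubling, so with 2 arrays a group a change of up to that size could not be told from none.

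After a week, IAA29 was still high and GH3.3 did not pass the test. IAA29 rose by 2.05 ± 0.38 (SE, 95% confidence interval 1.23 to 2.87, limma adjusted p = 0.0032) at 7 days against 0 h, a 4.13-fold difference on the signal + 8 scale, and both arrays of 7 days lay above both of 0 h, as 59.9% of probe sets did in one direction or the other. GH3.3 differed by 0.36 ± 0.28 (SE, 95% confidence interval -0.26 to 0.97, limma adjusted p = 0.41). Thus 1 of 2 members was called higher, where 9.18% of all probe sets were called higher and 19.9% in either direction. This comparison shares the 0 h arrays with the one that chose the pair.

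The means compared at 7 days against 1 h use none of the arrays whose difference chose the pair. The SE and p do use them, as the spread was estimated over all 8 arrays. IAA29 signals were 89.1 and 106.7 at 7 days, against 15.0 and 23.8 at 1 h. It rose by 1.96 ± 0.38 (SE, 95% confidence interval 1.14 to 2.78, limma adjusted p = 0.00362). GH3.3 signals were 18.9 and 33.1 at 7 days, against 25.7 and 27.9 at 1 h. Its difference was -0.06 ± 0.28 (SE, 95% confidence interval -0.68 to 0.55, limma adjusted p = 0.901), and the sign turned, to 0.048 with arrays scaled to equal medians and 0.070 after quantile normalization. Again 1 of 2 members was called higher, with 9.86% of all probe sets called higher. Fitted to the 4 arrays of these groups alone, IAA29 was called (limma adjusted p = 0.000224) and GH3.3 was not (limma adjusted p = 0.9). The arrays of these groups lay apart for 64% of probe sets, so a lack of overlap alone says little here.

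Between 24 h and 7 days, a comparison that again uses the 24 h arrays and has no test, IAA29 changed by -0.30 ± 0.38 and GH3.3 by -1.20 ± 0.28 (SE). Of all probe sets, 4.46% were called lower there, and for 51.8% the arrays of the groups lay apart. The IAA29 arrays of 7 days both lay within the span of its 24 h arrays, while both GH3.3 arrays of 7 days lay below both of 24 h. For IAA29 the sign rests on 1 array: without replicate 2 of 24 h the difference was 0.25, and without replicate 1 of 24 h it was -0.84.

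**Figure D2:**
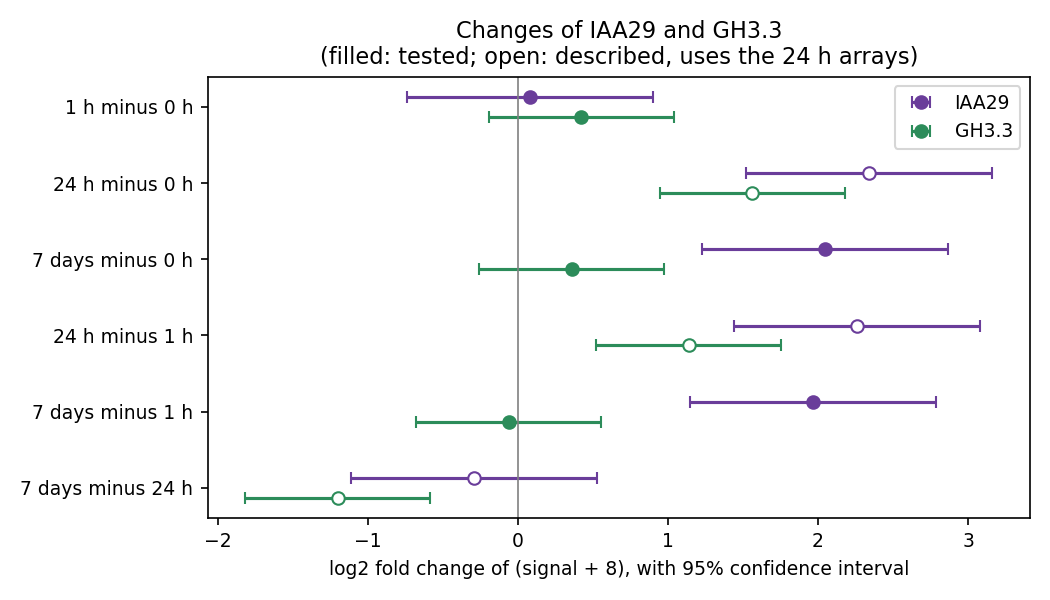
Log2 fold change of (signal + 8) with its 95% confidence interval for IAA29 (purple, upper of each pair) and GH3.3 (green) in 6 comparisons of 2 arrays against 2. Filled points were tested and open points are a description. The IAA29 intervals for 7 days against 0 h and against 1 h lie above 0, at 1.23 to 2.87 and 1.14 to 2.78, while those of GH3.3 include 0.

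The changes of both genes were also set against each other. On each array the log2 value of GH3.3 was subtracted from that of IAA29, a step added after the values had been seen. The change of IAA29 from 1 h to 7 days exceeded that of GH3.3 by 2.03 log2 units, with per-array differences of 1.85 and 1.48 at 7 days, against -0.55 and -0.17 at 1 h. For 7 days against 0 h the excess was 1.69. An exact two-sided permutation test over arrays gave p = 0.333 for both, the smallest p that 2 arrays against 2 allow, so this test could not pass at 0.05 and says nothing for or against a difference between the genes. The per-array differences of 7 days did not overlap those of 0 h or of 1 h, which alone says little. Single probe sets lay apart for 59.9% at 7 days against 0 h and for 64% against 1 h. No such share was taken over pairs of genes.

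The spread between arrays differed for the 2 genes. The SD of the log2 values pooled over the groups was 0.54 for IAA29 and 0.25 for GH3.3, and the median over all tested probe sets was 0.23. Moderation of the variances, which draws each gene's spread towards that of genes of like signal, brought IAA29 to 0.38 and GH3.3 to 0.28. The IAA29 intervals above are therefore narrower than its own 8 arrays alone would give. Replicate 2 was the higher array of IAA29 in all 4 groups and of GH3.3 in 3 of 4, and 9.08% of tested probe sets were higher in replicate 2 in all 4 groups. The 0 h arrays of IAA29 differed 2.55 times, a gap reached by 3.33% of probe sets. RNA integrity and labelling can be read from the actin control, as its signal near the 3' end over that near the 5' end. On the 24 h arrays, where IAA29 had 80.8 and 180.9, this ratio was 6.53 and 3.44. On the other 6 arrays it lay between 2.95 (0 h replicate 2) and 5.91 (7 days replicate 2). Its part in the results was not tested.

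Other genes of the auxin pathway were taken from 8 lists with 245 genes in all, of which 18 besides IAA29 and GH3.3 have a probe set of their own and 7 passed the filter. Many well-known auxin genes, all of the auxin response factors and SAUR genes among them, are therefore not analysed here. The annotation used left 8730 of 22810 probe sets unnamed, so a gene not found in it may still have a probe set on the array. Below, a gene is called measured where this annotation pairs it with a probe set of its own. Over these 7 genes, 0 were called at 1 h against 0 h, 1 was higher and 1 lower at 24 h against 0 h, and 1 was higher and 1 lower at 7 days against 0 h. At 7 days against 1 h, 0 were higher and 1 was lower. Calls of lower probe sets made up 15.3%, 10.7% and 11.9% of all tested at 24 h against 0 h, 7 days against 0 h and 7 days against 1 h. Calls of higher probe sets made up 11.8%, 9.18% and 9.86% in the same comparisons. At 1 h against 0 h, 0.32% were called in either direction. With 7 genes, these counts are too small to be set apart from such shares. The median log2 change of these 7 genes was -0.04 at 24 h and -0.26 at 7 days against 0 h, beside medians of -0.06 and -0.05 over all probe sets tested. WAG2, among the 7, passed the filter only through its 24 h arrays. The lists do not hold every gene tied to auxin. IAGLU, an auxin glucosyltransferase gene on none of them, is named here after its values were seen and is not in these counts. IAGLU fell by 1.06 on the log2 scale at 24 h against 0 h, and its change at 7 days was -1.36 against 0 h and -1.40 against 1 h. As these values chose it, they are a description with no test.

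Among the repressors, 6 other Aux/IAA genes were measured and only IAA18 passed the filter. IAA18 had signals of 151.0 and 131.1 at 7 days, against 189.7 and 208.9 at 0 h, and was not called (log2 fold change -0.48, limma adjusted p = 0.106). IAA20, IAA30, IAA31, IAA33 and IAA34 had signals between 0.509 and 32.3 and did not pass the filter, so no change is given for them. IAA20, for example, was between 0.955 and 10.5, and IAA30 between 7.75 and 18.2.

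The GH3 family had 5 measured members. GH3.17, an enzyme that conjugates auxin with glutamate, had 208.1 and 247.3 at 24 h, against 137.6 and 154.0 at 0 h. It rose by 0.61 ± 0.21 (SE, limma adjusted p = 0.0495), a call lost under 11 of 16 alternatives with adjusted p between 0.0506 and 0.216, among them leaving out either 0 h or either 24 h array. WES1, also known as GH3.5, which acts on auxin and salicylic acid, had 206.3 and 186.3 at 7 days, against 109.4 and 133.6 at 0 h. It rose by 0.66 ± 0.19 (SE, limma adjusted p = 0.0301), and the call was lost without any 1 of these 4 arrays (adjusted p between 0.0517 and 0.187). At 24 h WES1 stood at -0.09 against 0 h (limma adjusted p = 0.755), the time at which GH3.3 had its high values. GH3.1 and GH3.9 had signals of at most 10.4 and 17.2 and did not pass the filter.

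Of the genes of auxin perception, SKP2A was measured, an F-box protein gene whose product binds auxin and marks cell division regulators for destruction. Its signals were 94.9 and 81.3 at 0 h, 105.6 and 80.2 at 1 h, 35.5 and 38.7 at 24 h, and 33.6 and 21.2 at 7 days. All arrays of 24 h and 7 days were below all arrays of 0 h and 1 h, the arrays on which IAA29 was low. The share of all probe sets that split so was not counted. SKP2A fell by 1.09 on the log2 scale at 24 h against 0 h (limma adjusted p = 0.00635), and the change at 7 days was -1.46 against 0 h (limma adjusted p = 0.00184) and -1.52 against 1 h (limma adjusted p = 0.00125). In these 3 comparisons the call was kept under all 16 alternatives.

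Transport and synthesis were thinly covered by the annotation used. WAG2, a kinase gene whose product acts on PIN auxin carriers, had 25.5 and 36.2 at 24 h, against 20.8 and 14.9 at 0 h, and was not called (log2 fold change 0.58, limma adjusted p = 0.207). It passed the filter only through its 2 arrays of 24 h, so nothing is read from its direction at 24 h. YUC2, a flavin monooxygenase gene of auxin synthesis, ranged from 32 to 49.3 over the 8 arrays and was called in 0 of 6 comparisons. YUC4, YUC6 and YUC11 of the same family, and the glucosyltransferase gene UGT84B1, did not pass the filter. UGT74D1, an auxin glucosyltransferase gene, had 381.3 and 256.2 at 24 h, against 187.8 and 135.7 at 1 h. It rose by 0.93 (limma adjusted p = 0.04). Its 7 days signals were 114.0 and 144.9, lower by 1.23 on the log2 scale than at 24 h (UGT74D1 log2 fold change -1.23, limma adjusted p = 0.0284). Against 0 h, where the arrays were 233.9 and 120.3, UGT74D1 did not pass at 24 h (0.86, limma adjusted p = 0.0528). The call at 24 h against 1 h was kept under 9 of 16 alternatives and that at 7 days against 24 h under 11. Both were lost without the filter on dim probe sets, without the intensity trend, and without 24 h replicate 1 or either 7 days array, and the call against 1 h also without either 1 h array (adjusted p up to 0.221 and 0.175).

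**Figure D3:**
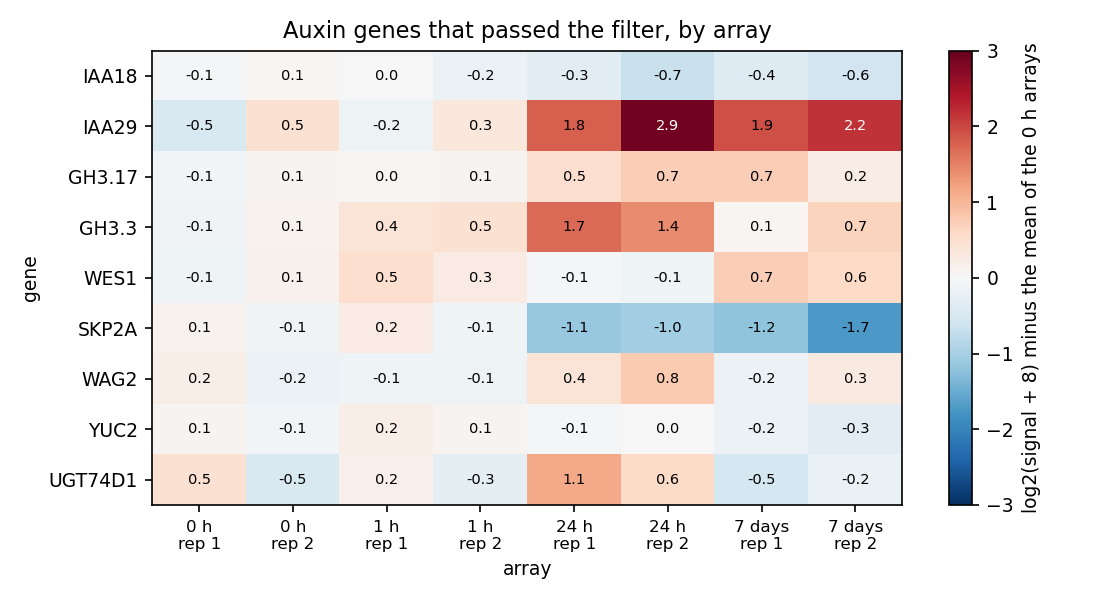
Log2(signal + 8) minus the mean of the 0 h arrays for the 9 auxin genes that passed the filter (rows) on the 8 arrays (columns, in order of time at 4 °C). Red is above and blue below 0 h. IAA29 is red on the 24 h and 7 days arrays, GH3.3 mainly on the 24 h arrays, and SKP2A is blue on the 24 h and 7 days arrays.

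Genes of light and growth pathways that meet auxin signalling were likewise few. Of all probe sets, 11.8% were called higher and 15.3% lower at 24 h against 0 h, and 19.9% either way at 7 days against 0 h. The genes below are too few for their counts to be set apart from these shares. Of 35 shade and phytochrome-interacting factor pathway genes, 3 were measured and 0 were called in any of the 6 comparisons. HAT2, an auxin-inducible homeobox gene, had 133.3 and 270.8 at 24 h, against 110.7 and 114.8 at 0 h (log2 fold change 0.72, limma adjusted p = 0.0824). HYH, a light signalling bZIP factor gene, had a log2 fold change of 0.75 at 24 h against 0 h (limma adjusted p = 0.0743) and FHL, which helps carry phytochrome A into the nucleus, of 0.22 (limma adjusted p = 0.629). Of 5 measured brassinosteroid and gibberellin growth genes, the expansin gene EXPA8 was the 1 called against 0 h at 24 h and at 7 days. It had 20.7 and 46.9 at 24 h, against 247.5 and 554.2 at 0 h, and the EXPA8 log2 fold change was -3.25 (limma adjusted p = 0.000154), a call kept under all 16 alternatives. At 24 h against 1 h the EXPA8 log2 fold change was -2.52 (limma adjusted p = 0.00075), likewise kept under all 16. It had 164.9 and 88.5 at 7 days, which was above 24 h (EXPA8 log2 fold change 1.70, limma adjusted p = 0.0222, kept under 13 of 16). Against 0 h it fell at 7 days by 1.55 on the log2 scale (limma adjusted p = 0.0166), a call lost without replicate 2 of 0 h or of 7 days (adjusted p between 0.125 and 0.149). The gibberellin receptor genes GID1A, GID1B and GID1C and the F-box gene SLY1 were called in 0 of 6 comparisons.

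Which genes had a profile like those of IAA29 and GH3.3 was read from Pearson's r over the 8 arrays, among 1950 other named genes whose group means spanned at least 1 log2 unit. The arrays share 4 groups of 2, so r mostly follows 4 levels and is given without a p. Which genes come closest depends on the measure: of the 5 named for IAA29, 1 stayed among the closest 5 by Spearman's rho and 0 by r over the 4 group means, and for GH3.3 these counts were 1 and 1. For IAA29 the closest were AT4G27620 (r = 0.99), AT2G32220 (0.984), AT2G01640 (0.984), AT3G52040 (0.977) and AT5G58370 (0.977). Each had its highest mean at 24 h and its next at 7 days, as AT2G01640 had, with 40.1 at 0 h, 39.3 at 1 h, 117.5 at 24 h and 112.2 at 7 days. Each also had its higher array in replicate 2 at 0 h, 1 h and 24 h. For GH3.3 the closest were AT1G64330 (r = 0.981), AT1G15480 (0.979), AT4G38150 (0.967), AT5G17270 (0.965) and AT5G57120 (0.964). AT1G15480, for example, averaged 15.1 at 0 h, 21.7 at 1 h, 52.2 at 24 h and 25.1 at 7 days. An r above 0.9 was reached by 192 genes with IAA29 and by 79 with GH3.3. The 2 genes themselves had r = 0.65, which placed GH3.3 at rank 646 for IAA29 and IAA29 at rank 462 for GH3.3.

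**Figure D4:**
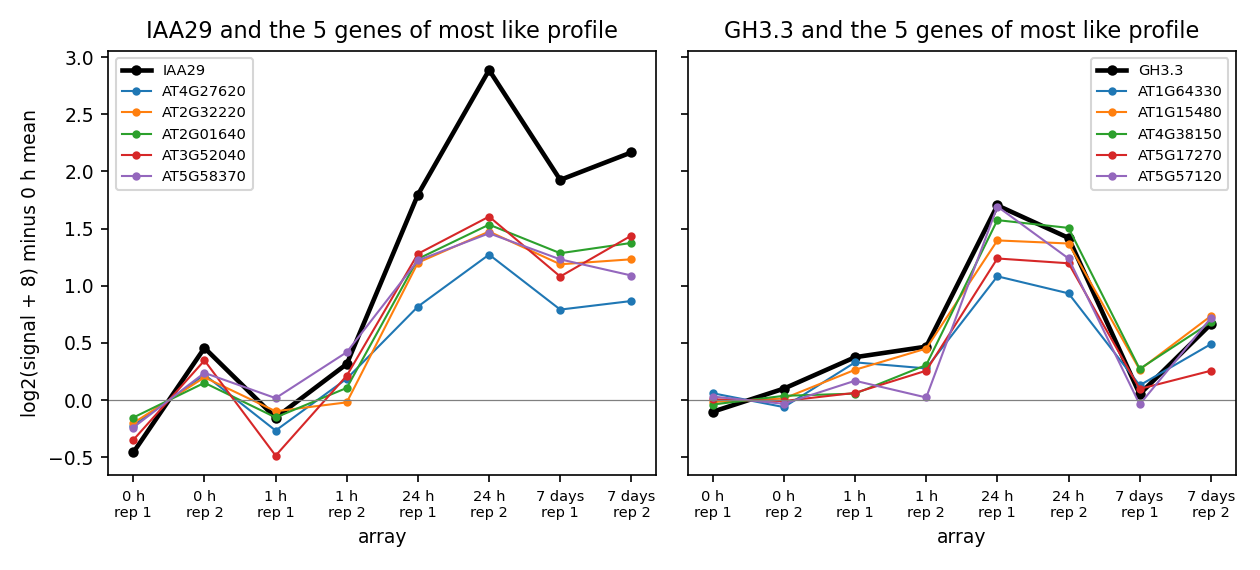
Log2(signal + 8) minus the mean of the 0 h arrays on each of the 8 arrays for IAA29 (left, black) and GH3.3 (right, black) and, in colour, the 5 named genes with the highest Pearson's r to each, of which other measures keep at most 1. The left genes stay up at 7 days, and the right ones are near their 0 h and 1 h values again at 7 days.

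Over the series, replicate arrays correlated at r between 0.956 and 0.972 across the 15017 tested probe sets, which are not independent of each other. Markers of leaf and root were set beside the label of whole plants. The 4 measured leaf genes LHCB4.1, LHCB4.2, LHCB4.3 and RCA had summed signals of 9932 to 16390, and the 4 measured root genes PYK10, NAI2, EXPA7 and EXPA18 of 979 to 2872. Genes too dim for the filter also had signals above 0, so these sums do not test the label. The root sum lay between 2164 and 2872 on the arrays of 0 h and 1 h and between 979 and 2013 on those of 24 h and 7 days, where IAA29 was higher. This sum mostly follows PYK10, with a mean of 2272 at 0 h, against 449 for NAI2, 39.5 for EXPA7 and 42.5 for EXPA18. Against 0 h, EXPA7 changed by -0.16 at 24 h and -0.35 at 7 days on the log2 scale. EXPA18 changed by 0.27 and 0.38, and neither gene was called. At 7 days against 0 h, 2 of the 4 root genes (PYK10 and NAI2) and 1 of the 4 leaf genes (LHCB4.3) fell and 0 rose, where 10.7% of all probe sets were called lower. Their log2 fold changes were -1.40 for PYK10, -1.10 for NAI2 and -2.59 for LHCB4.3 (limma adjusted p = 0.00386, 0.00686 and 0.0012), and the NAI2 call was lost without 7 days replicate 2 (adjusted p = 0.0677). At 24 h against 0 h, NAI2 (log2 fold change -1.40), PYK10 (-0.81) and LHCB4.2 (-1.02) fell (limma adjusted p = 0.0012, 0.0406 and 0.0078), where 15.3% of all probe sets were called lower. Their calls were kept under 16, 7 and 14 of 16 alternatives. The part of such shifts in the IAA29 and GH3.3 values was not tested.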

How the data were processed

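The members and gene lists were chosen with earlier results of these data known. The deposited files hold 1 signal intensity per probe set and array, not log-transformed, for which the submitters' processing notes name MAS5. Each array had been scaled to a trimmed mean near 100 (99.96 to 99.97), as the values show. The MAS5 version and settings, and any detection calls, were not stated. Of 22810 probe sets, 64 controls were left out, 13513 pair with 1 gene, 503 with several and 8730 are unnamed here. Symbols were updated by gene identifier with a RefSeq table of assembly TAIR10.1 (13436 matched), used for names only.

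Signals were taken as log2(signal + 8). Probe sets exceeding the 40th percentile on 2 or more arrays were tested (15017). A limma (3.58.1, R 4.3.3) model of 4 group means used all 8 arrays (4 residual and 7.67 prior degrees of freedom, intensity trend), two-sided, with Benjamini-Hochberg adjustment over all tested probe sets and calls at an adjusted p under 0.05. The code was tested on simulated data. Of several probe sets of a gene, the brightest stood for it. Named are both members and all measured genes of the auxin, shade and growth lists, whether called or not. The measured leaf and root markers and the 5 genes of most like profile are also named, plus IAGLU, chosen after its values were seen. Alternatives changed the pseudocount, filter, scaling, trend, arrays and replicate block. The number of arrays limits the precision (median SE 0.24). Sequences of the genes were not analysed here.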

Additional observations from a re-analysis of the deposited data

Results flagged for a closer look

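The change of IAA29 against 0 h differed between 7 days and 1 h. The difference of both changes is the comparison of 7 days with 1 h already given above, not a further result. It was 1.96 on the log2 scale (limma adjusted p = 0.00362), where 9.86% of all probe sets were called higher. Both arrays of 7 days lay above both of 1 h, but the arrays of these groups lay apart for 64% of probe sets. No group holds 4 or more arrays, so single arrays could not be tested for standing apart.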

How the results depend on the processing

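Over 16 alternatives for each of the 12 fold changes of IAA29 and GH3.3, 186 of 192 values kept their sign. IAA29 was called under all 16 at 7 days against 0 h (1.37 to 2.50, adjusted p 0.000422 to 0.0382) and against 1 h (1.34 to 2.31, adjusted p 0.000224 to 0.0389), and GH3.3 under none. All 16 alternatives kept the moderation of variances, which brought the SD of IAA29 from 0.54 to 0.38, and the calls were not tried without it. For GH3.3 at 7 days against 1 h the sign turned with equal medians (0.048), quantile normalization (0.070) and without 7 days replicate 1 (0.24, with -0.37 to 0.24 over arrays left out). IAA29 at 1 h against 0 h ranged from -0.38 (0 h replicate 1 left out) to 0.54 and was -0.15 with 1 h replicate 2 left out. IAA29 at 7 days against 24 h was -0.84 to 0.25. With a pseudocount of 1, IAA29 at 24 h against 0 h was 2.76 and GH3.3 1.88. With 32 they were 1.63 and 1.01, and against 1 h 1.60 and 0.78, and GH3.3 at 7 days against 24 h was -0.81. With single arrays left out, IAA29 at 24 h was 1.80 to 2.89 against 0 h and 1.72 to 2.81 against 1 h, and GH3.3 at 7 days against 24 h -1.51 to -0.90.

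Calls over all probe sets at 1 h against 0 h were 48, but 23 without the filter, 29 without the trend and 16 to 57 with 1 array left out. At 7 days against 24 h they were 1396, but 808 without the filter and 291 to 1354 with 1 array left out. With 1 array left out they were 2694 to 3942 at 24 h against 0 h (4074), 2042 to 3840 at 24 h against 1 h (3906), 1472 to 3202 at 7 days against 0 h (2989) and 1394 to 3466 at 7 days against 1 h (3262). Called auxin list genes at 24 h against 0 h were 2, but 1 with a pseudocount of 1, no filter, no trend or only 4 arrays. At 24 h against 1 h they were 2, but 1 without filter or trend. At 7 days against 24 h they were 2, but 1 without filter, 0 without trend and 1 with 4 arrays. With 1 array left out they were 1 to 2, 0 to 2 and 0 to 2 in these, and 1 to 2 at 7 days against 0 h. Of the 5 most like genes, Spearman's rho kept 1 for each member, and r over group means 0 for IAA29 and 1 for GH3.3. The cause was not tested in any of these.

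Replicate numbers did not pair the arrays throughout: replicate differences correlated at 0.24 to 0.40 among 0 h, 1 h and 24 h and at -0.21 to -0.03 with 7 days. With the replicate block IAA29 was at 2.05 (adjusted p = 0.000422) at 7 days against 0 h, and calls at 24 h against 0 h were 4391. The block changed no call of either gene.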
